A study of Mus musculus with 2 samples.

Results

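Connexins are the proteins of gap junctions, and 9 of their genes, Gja1, Gja4, Gja5, Gjb1, Gjb2, Gjb6, Gjc1, Gjc3 and Gjd2, were followed in total RNA of the embryonic mouse hindbrain. They were taken by symbol, through the Ensembl gene identifier, out of 43346 genes in the gene tables, and their 18 transcripts out of the transcript tables. The tissue came from strain B6NCrl at embryonic day 15.5, from healthy embryos of both sexes, and the labels name no mutation and no treatment. There were 2 libraries of 1 group, each a pool: replicate 1 of 78 embryos and replicate 2 of 62. No second condition was sampled, so the questions were which connexins the tissue expressed, at what level, in which transcripts, and how far the pools differed.

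A connexin crosses the membrane repeatedly and assembles into a ring called a hemichannel, which docks with a hemichannel of the neighbouring cell. The resulting channel lets ions and small molecules pass between the cytoplasms of both cells. In brain, astrocytes are coupled mainly through connexin 43 and connexin 30, oligodendrocytes through connexin 32 and their partners, and neurons form electrical synapses of connexin 36. Connexins of the vessel wall couple endothelial and smooth muscle cells.

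Summed over genes, the estimated counts came to 40020322 in replicate 1 and 43263959 in replicate 2. Levels are given in TPM, a relative abundance corrected for transcript length, so that genes can be compared within a library. The hindbrain gene Hoxa2 was present at 18.6 and 22.3 TPM. Neurons, astroglia, vessels, meninges and choroid plexus all contributed RNA. Most marker genes of each reached 1 TPM in both libraries, as did 63.1% of the nuclear protein-coding genes. In bulk RNA fewer cells of a type and less RNA per cell cannot be told apart.

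Every member carried the cysteine spacing by which connexins are recognised. In the coding sequence of the most abundant transcript, 9 of 9 had 3 cysteine codons separated by 6 and then 3 codons, in the part that encodes the first extracellular loop. All 9 also had a later set of cysteine codons, separated by 4 and then 5 codons. The first set is shown because it carries this signature in every member. The 36 bases are given 5′ to 3′ on the coding strand (GRCm38, GENCODE M21 transcripts), with the cysteine codons in capitals.
Gja1 (chr10:56387706-56387741, plus strand): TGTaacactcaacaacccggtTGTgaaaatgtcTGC
Gjb6 (chr14:57124611-57124646, minus strand): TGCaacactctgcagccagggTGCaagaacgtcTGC
Gjb2 (chr14:57100558-57100593, minus strand): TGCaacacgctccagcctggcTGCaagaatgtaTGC
Gja4 (chr4:127312774-127312809, minus strand): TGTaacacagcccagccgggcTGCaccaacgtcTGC
Gja5 (chr3:97050788-97050823, plus strand): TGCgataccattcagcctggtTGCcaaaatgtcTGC
Gjc1 (chr11:102800984-102801019, minus strand): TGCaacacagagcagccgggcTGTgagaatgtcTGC
Gjb1 (chrX:101384324-101384359, plus strand): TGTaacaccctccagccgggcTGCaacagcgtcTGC
Gjc3 (chr5:137957797-137957832, minus strand): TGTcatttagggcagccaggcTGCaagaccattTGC
Gjd2 (chr2:114011797-114011832, minus strand): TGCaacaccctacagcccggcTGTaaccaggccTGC

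Within these 36 bases, pairs of members matched at 18 to 31 positions. Over whole coding sequences the identity in 36 pairwise alignments ran from 37.5% to 65.5%, with a median of 47.1%. The closest pair was Gjb6 and Gjb2 at 65.5%, followed by Gjb6 and Gjb1 at 60.1% and by Gja4 and Gja5 at 57.8%. The longest run of identical bases shared by any 2 of the transcripts was 26 nt, between Gja1 and Gja4. In the deposited gene tables the posterior standard deviation of the count was 0 for each of the 9 genes in both libraries, so the gene counts did not vary over the authors' posterior samples. The coding sequence lay in a single exon in 7 of 9 members, and in 2 exons in Gjc3 and Gjd2.

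Of the 9 members, 8 reached 1 TPM in both libraries, the minimum used here for detection. Over all 21461 nuclear protein-coding genes 63.1% did so. Gjc3 was the exception, at 1.13 TPM in replicate 1 but 0.95 in replicate 2. The median over all 9 members, with Gjc3 included, was 15.3 TPM. Over only those coding genes that reached the minimum it was 19.4 TPM, so these medians cover sets filtered differently.

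The members classed here as astroglial took most of the members' TPM. The classes group genes and not cells: Gja1 and Gjb2 are also made in meninges, and the part of each cell type in the shares was not tested. Gja1, Gjb6 and Gjb2 together reached 138 TPM in replicate 1 and 111 in replicate 2. That was 68.1 ± 4.24% (SD, n = 2) of the TPM of the 9 members. The vascular members Gja4, Gja5 and Gjc1 held 25.5 ± 3.30%, the neuronal member Gjd2 held 5.04 ± 0.795%, and the oligodendroglial members Gjb1 and Gjc3 held 1.37 ± 0.140%. The order of the classes was the same in both libraries, and their shares did not overlap. Gjc1 is also made by neurons, and when it was counted with Gjd2 the neuronal share was 19.5% and the vascular share 10.96%, which turned the order of these classes.

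**Figure D1:**
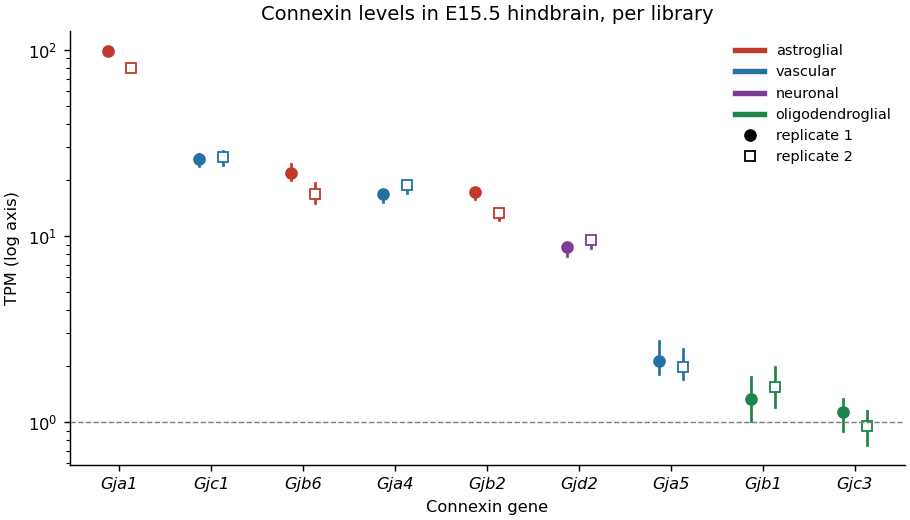
TPM of each connexin gene on a log axis in replicate 1 (filled circles) and replicate 2 (open squares), coloured by class, with the deposited interval of TPM as a vertical line and the detection minimum of 1 TPM as a dashed line. Gja1 lies far above the rest at 80.5 to 98.8 TPM, a middle group lies between 8.69 and 26.5 TPM, and Gja5, Gjb1 and Gjc3 lie near the minimum.

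Gja1 encodes connexin 43, the main connexin of astrocytes and their radial precursors, which meningeal and choroid cells also make. The gene (ENSMUSG00000050953) lies on chromosome 10 from 56377330 to 56402513 (GRCm38). It had 98.8 TPM in replicate 1, from 7684 counts, and 80.5 TPM in replicate 2, from 6610 counts, a mean of 89.6 ± 13.0 TPM. That placed it at the 91.5th percentile of nuclear protein-coding genes. It alone made up 50.9% and 47.4% of the members' TPM.

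Gjb6 and Gjb2 encode connexin 30 and connexin 26 and are neighbours on chromosome 14. Connexin 30 is a later astrocyte connexin, and connexin 26 is known from leptomeninges and some astrocytes. Gjb6 (57123303 to 57133611) stood at 21.9 TPM in replicate 1 against 16.8 in replicate 2. Gjb2 (57098600 to 57104702) had 17.3 and 13.4 TPM. Both were lower in replicate 2, and the ratio of Gjb6 to Gjb2 hardly moved, at 1.27 and 1.26. Gja1 exceeded Gjb6 4.50-fold in replicate 1 and 4.79-fold in replicate 2.

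The neighbourhood of these genes was uneven. Gja3, a lens connexin, lies on the same strand 40500 bases from Gjb2, and the 3 genes sit within 99.2 kb of chromosome 14 (57034460 to 57133611). Gja3 had 0.35 and 0.23 TPM, so Gjb6 stood 62.7-fold and 73.0-fold above it. The next coding gene beyond Gjb6, Cryl1, had 9.79 and 9.18 TPM.

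The astroglial markers differed widely in level beside these connexins. Aldoc and Slc1a3, a glycolytic enzyme and a glutamate transporter, led the list of 9 at 257 and 258 TPM and at 158 and 183 TPM. The others ran from Aldh1l1 at 52.3 and 65.8 TPM and Slc1a2 at 15.3 and 15.0 TPM down to Aqp4, the water channel of astrocyte endfeet, at 6.97 and 5.78 TPM and Gfap, an intermediate filament gene, at 1.53 and 1.48 TPM. Gjb6 exceeded Gfap 14.3-fold and 11.4-fold, and Aqp4 3.15-fold and 2.91-fold.

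Gjd2, the gene of connexin 36, lies on chromosome 2 from 114009601 to 114013619. It forms the electrical synapses between neurons, among them those of the inferior olive in the hindbrain. It stood at 8.69 TPM in replicate 1 and 9.52 in replicate 2, a mean of 9.11 ± 0.587 TPM, from 625 and 723 counts. The values of both libraries were close, and they lay at the 56.0th percentile of coding genes. The neuronal tubulin Tubb3 had 1406 and 1445 TPM. Map2, a microtubule protein of dendrites and the next of the neuronal list, had 294 and 291 TPM. Of the list for the inferior olive and other coupled neurons, all 4 genes were detected, beside 63.1% of the nuclear protein-coding genes. Pou4f1 led at 47.3 and 34.3 TPM, with Foxp2 at 30.3 and 46.4 TPM. The part of each cell type in the level of Gjd2 was not tested. Separate noncoding entries named A530058N18Rik lie on the other strand and overlap the 5′ start of Gjd2. The entry sharing 57 bases had 0.17 and 0.46 TPM, and that sharing 18 bases had 11.75 and 13.18 TPM. Since the use of strand in counting is not given in the sources used here, reads in these overlaps are uncertain.

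Gjc1 was the second most abundant member. It encodes connexin 45, found in vascular smooth muscle and in some neurons, and lies on chromosome 11 from 102799579 to 102819700. It stood at 26.0 TPM in replicate 1 and 26.5 in replicate 2, the smallest difference relative to its mean of any member, at 26.2 ± 0.346 TPM. Gja4, which encodes connexin 37 of arterial endothelium, lies on chromosome 4 from 127311421 to 127314039 and had 16.7 and 18.8 TPM. Gja5, connexin 40, also of arterial endothelium, lies on chromosome 3 from 96904693 to 97077416 and was much lower at 2.12 and 1.97 TPM. Gja4 exceeded Gja5 7.90-fold in replicate 1 and 9.52-fold in replicate 2. The annotated span of Gja5 in GENCODE M21 overlaps several genes of the other strand, among them Gpr89. Gpr89 ends at 96905346, before the quantified transcripts of Gja5 start at 97032416. The antisense gene 4930573H18Rik (97046656 to 97092785) does overlap the span of the leading Gja5 transcript, which ends at 97053634.

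Most vascular markers reached the minimum in both libraries, as did 63.1% of the nuclear protein-coding genes. The 6 endothelial markers were all detected, led by Cldn5 at 93.9 and 89.2 TPM and Kdr at 18.9 and 19.7 TPM. Of 5 arterial markers 3 were detected, with Hey1 at 21.0 and 23.2 TPM and Efnb2 at 14.2 and 17.1 TPM. The arterial genes Bmx and Gkn3 missed the minimum at 0.37 and 0.5 TPM and at 0.83 and 0.34 TPM. Of 7 genes of pericytes and smooth muscle 6 were detected, led by Acta2 at 16.6 and 15.8 TPM and Pdgfrb at 12.9 and 14.8 TPM, while Myh11 of mature smooth muscle had 0.76 and 0.63 TPM.

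The oligodendroglial connexins were at the edge of detection. Gjb1, which encodes connexin 32 of oligodendrocytes and Schwann cells, lies on chromosome X from 101376378 to 101385629. It had 1.34 TPM in replicate 1, from 50 counts, and 1.55 TPM in replicate 2, from 62 counts. Gjc3, which encodes connexin 29 of the same cell types, lies on chromosome 5 from 137953461 to 137963098. It had 1.13 TPM from 100 counts and 0.95 TPM from 89 counts. Their deposited TPM intervals overlapped in replicate 1, from 1.02 to 1.75 for Gjb1 and from 0.902 to 1.33 for Gjc3, but not in replicate 2, from 1.20 to 1.98 for Gjb1 and from 0.754 to 1.14 for Gjc3.

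Most markers of the oligodendrocyte lineage and of Schwann cells also reached the minimum, beside 63.1% of the nuclear protein-coding genes. All 4 precursor genes were detected, led by Olig1 at 96.6 and 110 TPM and Olig2 at 13.5 and 13.1 TPM. Of 7 myelin genes 5 were detected, led by Cnp at 48.1 and 49.5 TPM and Mbp at 32.1 and 29.2 TPM. Opalin, made by myelinating oligodendrocytes, had 0 counts in both libraries, and Mobp had 0.11 and 0.06 TPM. All 5 Schwann cell markers were detected, led by Pmp22 at 31.7 and 33.1 TPM. The part of each cell type in the levels of Gjb1 and Gjc3 was not tested.

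In order of mean TPM the members ran from Gja1 through Gjc1, Gjb6, Gja4, Gjb2, Gjd2, Gja5 and Gjb1 to Gjc3. The ranges of the 2 libraries overlapped for Gjb6 with Gja4 and for Gja4 with Gjb2, so these neighbours did not differ beyond their spread. Gja4 was below Gjb6 in replicate 1 and above it in replicate 2. The other 6 pairs of neighbours did not overlap. The step from Gja1 to Gjc1 was 3.801-fold and 3.04-fold, and that from Gjd2 to Gja5 was 4.10-fold and 4.83-fold. Gjc1 kept its second place over coding transcripts alone, where it had 23.5 and 22.7 TPM against 20.9 and 15.3 TPM for Gjb6.

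The other 11 connexin genes were low, and only 1 was detected. Gjd3 was at 1.41 TPM in replicate 1 and 2.48 in replicate 2, from 27 and 50 counts. Gjb5, best known from skin, had 0.19 and 0.09 TPM. Gja6 and Gje1 had 0 counts in both libraries, and a floor of 3 counts corresponds to 0.0604 and 0.0572 TPM for Gja6 and to 0.0839 and 0.0795 TPM for Gje1. Gja10, a connexin of the retina, had 0.04 and 0.15 TPM, and Gjd4 had 0.02 and 0.07 TPM. Over the whole family 9 of 20 connexin genes were detected, beside 63.1% of the nuclear protein-coding genes.

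**Figure D2:**
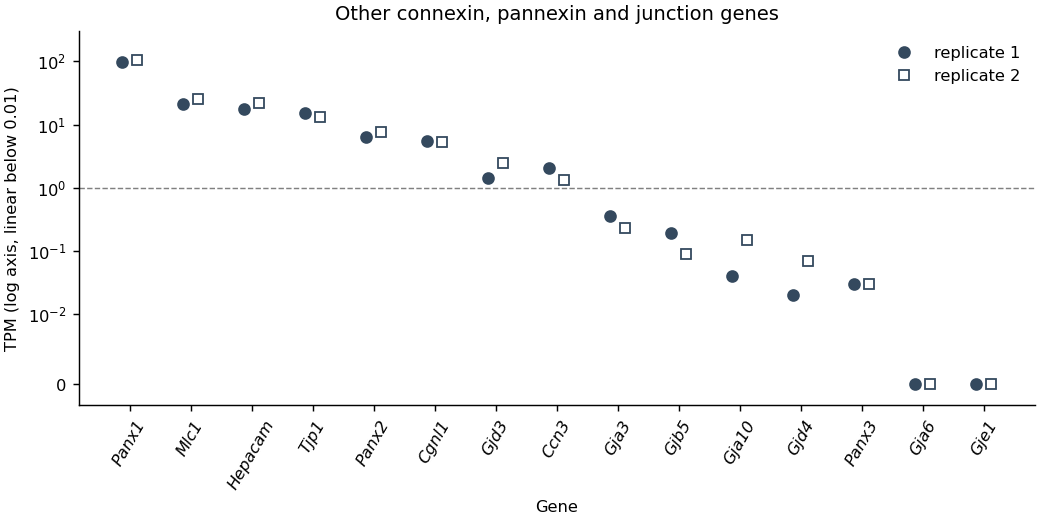
TPM of 15 of the other connexin, pannexin and junction genes in replicate 1 (filled circles) and replicate 2 (open squares), on a log axis that is linear below 0.01, with 1 TPM as a dashed line. Panx1 is highest at 98.2 and 106.5 TPM, Gjd3 is the only connexin plotted that lies above the line in both libraries, and Gja6 and Gje1 sit at 0.

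Pannexins form single-membrane channels that resemble hemichannels. Panx1 had 98.2 and 106.5 TPM, and its ratio to Gja1 was 0.994 in replicate 1 and 1.32 in replicate 2. Panx2, expressed in neurons, had 6.34 and 7.49 TPM, and Panx3 of bone and cartilage 0.03 TPM in both libraries.

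All 6 listed partners and junction-associated genes were detected, beside 63.1% of the nuclear protein-coding genes. The scaffold gene Tjp1, whose protein ZO-1 binds connexins at the membrane, had 15.1 and 13.0 TPM. Mlc1 and Hepacam, whose proteins form an astrocyte junction complex, had 21.2 and 25.01 TPM and 17.7 and 21.6 TPM. Cgnl1 had 5.55 and 5.37 TPM. Ccn3, listed under its older symbol Nov, encodes a secreted protein that binds connexin 43, and had 2.05 and 1.32 TPM.

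Between the pools the 3 astroglial connexins were all lower in replicate 2. After TMM scaling the ratio of replicate 2 over replicate 1 was 0.797 for Gja1, with a 95% exact (Clopper-Pearson) interval from 0.771 to 0.824. For Gjb2 it was 0.758 (0.691 to 0.831) and for Gjb6 0.715 (0.652 to 0.784). These 3 intervals lay below 1, and those of the other 6 members held 1. Over the 17048 genes averaging at least 20 counts, 18.5% had an interval wholly below 1 and 19.6% one wholly above it, so such an interval was common between these pools. The intervals cover counting error only, taking each read as independent, and hold no spread between pools. The tables carry no molecular identifiers, so reads copied from the same molecule count as separate. With 1 library per pool no p-value was computed.

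None of the 9 members passed 1.5-fold in either direction, while 6.48% of those 17048 genes did. Among all those genes the ratio of Gja1 stood at the 9.92th percentile, that of Gjb2 at the 7.60th and that of Gjb6 at the 5.74th. On the log2 scale the 3 ratios were -0.33, -0.40 and -0.48. When counts were scaled by spike-in totals instead, Gjb6 alone passed 1.5-fold, at -0.60, and the median gene moved by -0.11.

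**Figure D3:**
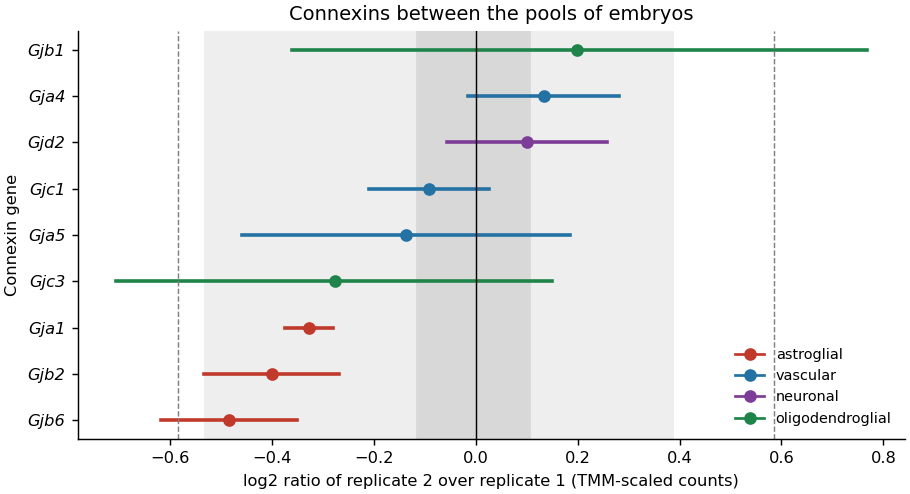
The log2 ratio of replicate 2 over replicate 1 after TMM scaling for each connexin, coloured by class, with 95% exact intervals for counting error as horizontal lines. Dark and light grey bands hold the middle 50% and 90% of the 17048 genes compared, dashed lines mark 1.5-fold, and Gja1, Gjb2 and Gjb6 are the members whose intervals do not reach 0.

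The remaining members were close between the pools or had wide intervals. Gjc1 was at 0.939 (0.865 to 1.02), Gja4 at 1.10 (0.990 to 1.22) and Gjd2 at 1.07 (0.962 to 1.20). Gja5 was at 0.910 (0.728 to 1.14). For Gjc3 the ratio was 0.825 (0.613 to 1.11) and for Gjb1 1.15 (0.779 to 1.70), intervals set by their low counts. The sign of the log2 ratio of Gjc1 and of Gjd2 changed over the scalings tried, from -0.21 to 0.03 and from -0.01 to 0.13.

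Marker lists of several cell types differed between the pools too. All 7 meningeal genes were lower in replicate 2, with a median log2 ratio of -0.35 and a summed level that went from 445 to 351 TPM, led by Col1a2 at 119 and 95.2 TPM and Col1a1 at 116 and 96.7 TPM. The 9 astroglial markers had a median of 0.0032, with 5 higher and 4 lower, and summed to 568 and 615 TPM. Of the lower ones, S100b was at -0.48 and Aqp4 at -0.30. Radial glia markers, led by Fabp7 at 1746 and 1815 TPM and Vim at 420 and 383 TPM, had a median of -0.15, with 2 of 5 higher. All 4 choroid plexus genes were higher in replicate 2, with a median of 0.45 and sums of 916 and 1258 TPM, led by Ttr at 868 and 1183 TPM and Folr1 at 23.8 and 41.4 TPM. The 4 microglial genes, led by C1qa at 29.2 and 24.9 TPM and Csf1r at 15.6 and 13.5 TPM, had a median of -0.22.

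The meningeal log2 ratios ran from -0.59 to -0.29, the astroglial ones from -0.48 to 0.30 and those of radial glia from -0.33 to 0.35. Gja1 and Gjb2 lay within the ranges of both the meningeal and the astroglial genes, and Gjb6 lay within the meningeal range and just below S100b, the lowest astroglial gene. The radial glia genes Nes and Hes5, at -0.33 and -0.30, were close to Gja1. The part of meningeal, astroglial or radial glial RNA in these ratios was not tested. Relative to Slc1a3, Gja1 was at 0.624 in replicate 1 and 0.439 in replicate 2. The astrocyte junction genes Mlc1 and Hepacam had ratios of 1.15 and 1.19, on the other side of 1 from the astroglial connexins. The medians for endothelial and arterial markers were 0.02 and 0.16, and those for pericytes and smooth muscle and for neurons -0.11 and 0.05. The list of coupled neurons had 0.21, oligodendrocyte precursors -0.11, myelin genes -0.08 and Schwann cell genes -0.19.

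**Figure D4:**
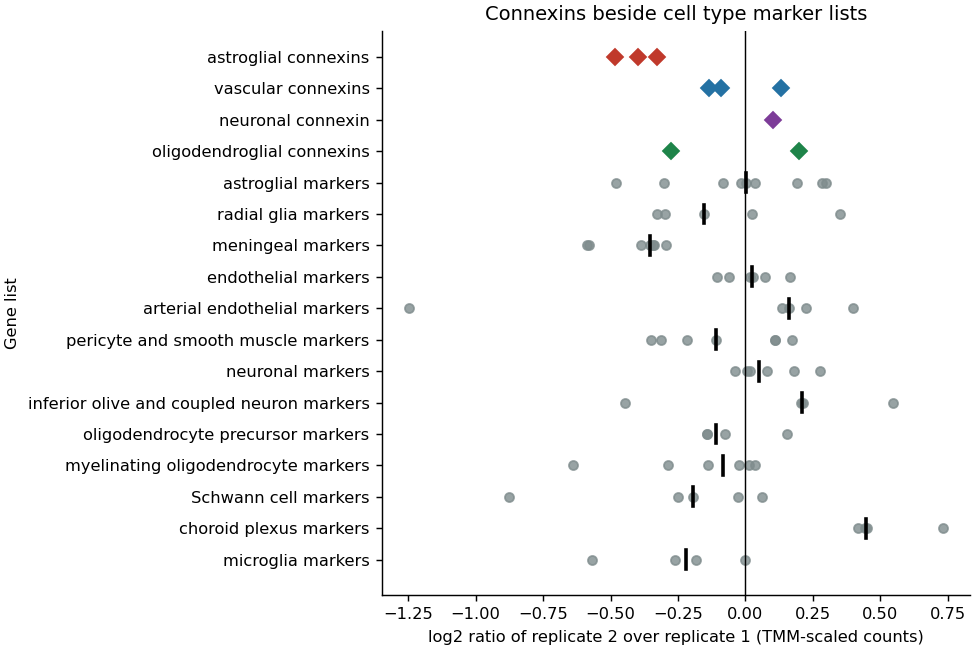
Each point is the log2 ratio of replicate 2 over replicate 1 of 1 gene after TMM scaling, with connexins by class as diamonds above and cell type markers as grey circles below, and with the median of each marker list as a black bar. The astroglial connexins lie from -0.48 to -0.33, the meningeal markers are all below 0 and the choroid plexus markers all above it.

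At the transcript level 5 of the 9 genes had a single transcript in the tables, namely Gja1, Gja4, Gjb2, Gjc3 and Gjd2. GENCODE M21 lists 8 transcripts for Gja1, so the tables, made with release M4, do not part them. Gja5 had a second transcript, listed at 0 TPM in both libraries.

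Gjc1 used mainly 1 of its 3 coding transcripts. These share the coding sequence of 1188 nt (chromosome 11, 102799988 to 102801175, without the stop codon) and differ in the first exon. ENSMUST00000068933, which starts at 102819179, had 18.3 and 18.4 TPM, or 69.9 ± 0.592% of the gene. ENSMUST00000092567, which starts at 102819700, had 3.75 and 3.51 TPM, and ENSMUST00000107075, which starts at 102804901, had 1.45 and 0.78 TPM. The noncoding ENSMUST00000131164, only 247 nt long, held 7.51% and 12.6% of the gene's TPM but 0.642% and 1.14% of its counts. For Gjb6 the leading ENSMUST00000039380 had 20.3 and 14.7 TPM, or 90.1 ± 3.49%, and 98.7% and 97.97% of the counts.

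**Figure D5:**
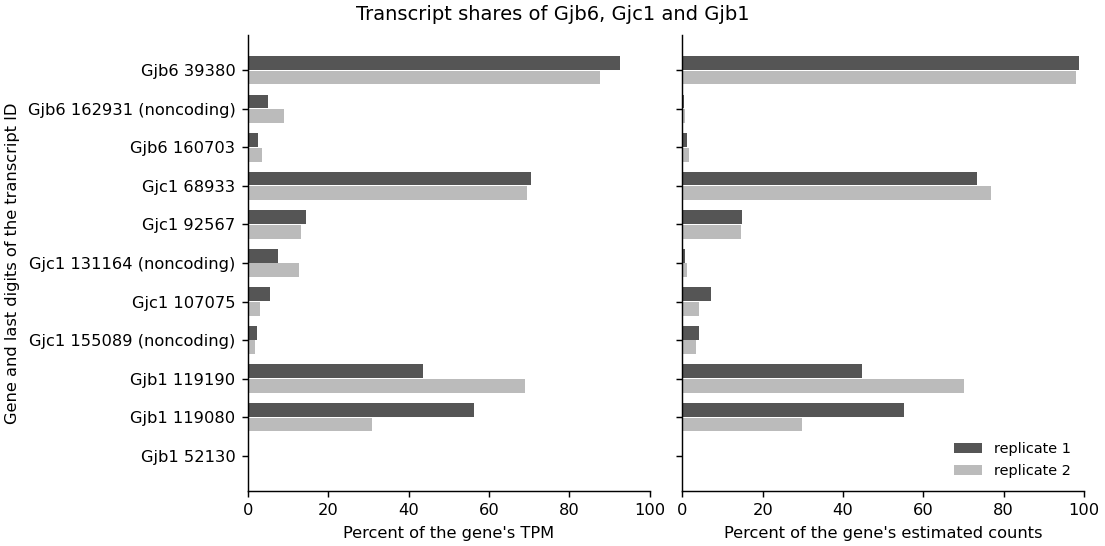
Share of each gene's TPM (left) and of its estimated counts (right) held by each transcript of Gjb6, Gjc1 and Gjb1, in replicate 1 (dark bars) and replicate 2 (light bars). The leading transcripts of Gjb6 and Gjc1 hold most of their gene in both libraries, and short noncoding transcripts hold more TPM than counts. By both of these measures, though not by posterior mean, the leading transcript of Gjb1 differs between libraries.

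Gjb1 has alternative promoters, one of which is used in nerve. Its 3 transcripts share the coding sequence of 849 nt and differ in their start. ENSMUST00000119190, from the most downstream start at 101383736, was at 0.58 TPM in replicate 1 and 1.07 in replicate 2. ENSMUST00000119080, from the most upstream start at 101376378, had 0.75 and 0.48 TPM. The third, ENSMUST00000052130, was listed at 0 in both. By TPM the downstream transcript thus held 43.6% and 69.0% of the gene, and the leader changed between the libraries. By the deposited posterior mean the downstream transcript led in both, at 0.6 and 0.83 TPM against 0.46 and 0.45 TPM for the upstream one. The third transcript then had 0.32 and 0.31 TPM. This split was not resolved at the depth at hand, since the deposited interval of the downstream transcript ran from 0.0664 to 1.17 TPM in replicate 1 and from 0.203 to 1.44 TPM in replicate 2.

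The third start, whose transcript was above 0 TPM only by posterior mean, is left out. Also left out is a further RefSeq start at 101382118, which lies 1618 bases from the nearest start of a quantified transcript. The windows around the other 2 starts are shown because the estimated counts of Gjb1 were divided between them. They run from 250 bases before to 50 bases after the RefSeq start (GRCm38.p6), which lies 2 bases from the start of ENSMUST00000119080 and 4 bases from that of ENSMUST00000119190. Capitals mark matches on either strand to any of 4 motifs, none of which overlapped. These are ACAAAG, a core of SOX factor sites, the GC box with the letters GGGCGG, the CCAAT box with just those letters, and the TATA box, searched as TATAAA.
Gjb1 upstream start (chrX:101376126-101376425, plus strand): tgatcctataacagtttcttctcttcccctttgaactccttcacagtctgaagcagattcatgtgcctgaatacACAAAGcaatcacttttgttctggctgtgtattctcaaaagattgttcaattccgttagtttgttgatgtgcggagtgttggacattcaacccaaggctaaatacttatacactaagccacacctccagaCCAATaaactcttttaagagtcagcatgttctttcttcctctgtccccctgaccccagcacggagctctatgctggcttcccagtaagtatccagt
Gjb1 downstream start (chrX:101383482-101383781, plus strand): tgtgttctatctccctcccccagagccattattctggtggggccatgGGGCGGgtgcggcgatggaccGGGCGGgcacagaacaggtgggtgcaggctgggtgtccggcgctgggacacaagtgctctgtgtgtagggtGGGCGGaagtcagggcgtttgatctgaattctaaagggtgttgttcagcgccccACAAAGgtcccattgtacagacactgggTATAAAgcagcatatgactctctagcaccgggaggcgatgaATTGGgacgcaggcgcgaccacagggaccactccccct

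The downstream window held 1 SOX core 57 bases before the start, a TATA box 29 bases before it, 3 GC boxes and 1 CCAAT box on the other strand. The upstream window held 1 SOX core 176 bases before the start and 1 CCAAT box 46 bases before it. Among 32851 promoter windows of the same length 18.7% held the SOX core, 35.7% a GC box, 37.4% a CCAAT box and 13.6% a TATA box. The downstream window had 60% G and C and 15 CG dinucleotides, and the upstream window 43.3% and 3, beside medians of 52.7% and 7 over all windows. A match describes the letters only.

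The start windows of the 3 astroglial connexins are shown because these members had similar ratios between the pools. They were searched for the same motifs, and capitals again mark matches.
Gja1 start (chr10:56377050-56377349, plus strand): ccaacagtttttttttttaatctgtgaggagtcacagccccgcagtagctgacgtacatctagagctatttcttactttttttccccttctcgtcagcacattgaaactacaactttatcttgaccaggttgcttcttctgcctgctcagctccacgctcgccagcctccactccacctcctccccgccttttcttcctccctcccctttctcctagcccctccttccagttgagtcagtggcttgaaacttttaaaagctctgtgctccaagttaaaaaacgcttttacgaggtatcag
Gjb2 start (chr14:57104653-57104952, minus strand): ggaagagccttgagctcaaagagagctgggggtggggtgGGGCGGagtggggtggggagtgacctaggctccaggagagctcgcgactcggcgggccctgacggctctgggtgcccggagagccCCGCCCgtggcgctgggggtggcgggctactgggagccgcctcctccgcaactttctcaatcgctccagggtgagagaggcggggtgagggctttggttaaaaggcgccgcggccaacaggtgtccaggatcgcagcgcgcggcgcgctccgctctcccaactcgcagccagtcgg
Gjb6 start (chr14:57133562-57133861, minus strand): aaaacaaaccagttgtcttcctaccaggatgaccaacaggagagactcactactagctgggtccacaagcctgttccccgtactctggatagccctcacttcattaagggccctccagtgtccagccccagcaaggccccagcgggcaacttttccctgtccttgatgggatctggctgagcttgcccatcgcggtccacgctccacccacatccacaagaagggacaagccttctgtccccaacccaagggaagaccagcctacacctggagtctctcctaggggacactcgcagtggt

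Gjb2 held 2 GC boxes, 211 bases and 126 bases before the start, and no match was present in the windows of Gja1 and Gjb6. The window of Gjb2 had 70% G and C and 27 CG dinucleotides, that of Gjb6 57.3% and 6, and that of Gja1 47.7% and 8. The neighbours Gjb2 and Gjb6 thus had the closest coding sequences of the 9 members and similar levels, but start windows that differed in base composition. The window of Gjd2 had 75% G and C and 41 CG dinucleotides, the most of the 11 windows found for 8 of the 9 members.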

How the data were processed

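Total RNA of the hindbrain was measured in 2 libraries of 1 group, labelled as biological replicates. Per the labels, each started from 10 ng of RNA with spike-ins. Per the notes deposited with the files, each library was quantified by itself from transcriptome alignments (mm10, GENCODE M4). The aligner is not given in the sources used here, nor are the quantifier and the strand setting.

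Estimated counts, per the file headers, are unnormalized reads per feature. The deposited TPM and, as an alternative, the deposited FPKM are scaled for effective length. The deposited posterior means, their spread and the bounds of TPM, read here as a signal never below 0, describe uncertainty. The percent of TPM per transcript was recomputed from the values and not taken from the authors' column.

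Symbols and positions came from GENCODE M21 (GRCm38, the assembly of mm10), which matched 42462 of 43346 identifiers, and promoter sequences from RefSeq on GRCm38.p6. TMM scaling used edgeR 4.0.16 (R 4.3.3) with a prior count of 0.5. A mean count of 20 or more was required for the background. A ratio past 1.5-fold was called. The comparison was tested on simulated counts of 17063 genes: 99.5% of the 200 made to differ 2-fold were recovered, and 1.51% of unchanged genes were called. The simulated counts held counting error only, and the genes made to differ had higher mean counts than Gjb1 and Gjc3. These rates therefore do not cover the spread between real pools or those 2 members. Coding sequences were aligned globally with Biopython 1.88, on GENCODE M21 transcripts. A list's result is its count detected and its median ratio. Spike-ins held 2.86% and 3.09% of counts and were left out of library sizes.

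The members, classes, gene lists, tests and alternatives were chosen with earlier results of these data known. Named were all members, the list of other connexin, pannexin and junction genes, and in each marker list the 2 genes of highest mean TPM and any at 0. Other markers named (Gfap, Aqp4, S100b, Aldh1l1, Slc1a2, Nes, Hes5, Bmx, Gkn3, Myh11, Mobp), the tissue gene Hoxa2, and the neighbour genes were added after their values were seen. Some genes of these lists are counted but not reported here by name.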

Additional observations from a re-analysis of the deposited data

How the results depend on the processing

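The count of 8 detected members was 9 at a minimum of 0.5 TPM, 6 at 2 TPM and 7 at 1 FPKM, and the count of 9 detected among the other junction genes was 7 at 2 TPM. The class shares stayed within 1 SD of their means under posterior TPM, FPKM, without Gjb2 and over coding transcripts, the last an alternative chosen after seeing the data. Counting Gjc1 as neuronal moved the vascular share to 10.96% and the neuronal share to 19.5%. Leaving out a replicate gave astroglial shares of 65.1% to 71.1%, which are the values of the single libraries and no check of stability. The number of members past 1.5-fold was 0 under DESeq2 1.42.0 size factors, library totals, TPM ratios and the count minimums tried, and 1 under spike-in totals. TPM rescaled over nuclear protein-coding genes raised every member's level, Gja1 to 114 TPM. Of 45 alternative log2 ratios of members, 43 stayed inside the counting interval. By estimated counts instead of TPM, the leading transcript of Gjc1 held 75.1% and that of Gjb6 98.3%. No paired analysis was possible because there was 1 group. With 50 to 100 counts, Gjb1 and Gjc3 are limited by depth.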
